A study of Trachemys scripta elegans with 3 samples.

Results

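The enzymes of methionine, folate and one-carbon metabolism were followed in the liver of the red-eared slider (Trachemys scripta elegans), a freshwater turtle, kept in fresh water (0 psu, where psu is the practical salinity unit) or in water of 5 or 15 psu. Members were the unigenes, that is, the assembled transcript clusters, whose best protein match in the NR database named Chrysemys, Chelonia, Pelodiscus, Trachemys or Alligator and carried 1 of 12 enzyme terms. These terms covered homocysteine, S-adenosylmethionine, cystathionine, tetrahydrofolate and dimethylglycine, together with further names of enzymes and substrates. The rule found 35 of the 205118 unigenes used here, and they stood for 27 genes. Of the 35, 28 matched Chrysemys (painted turtle), 5 matched Chelonia (green turtle) and 2 matched Pelodiscus (softshell turtle). No member was taken through the name of phosphatidylethanolamine N-methyltransferase, the enzyme that makes phosphatidylcholine by methylation. No expression value entered the rule.

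The study asked how the liver transcriptome of this turtle differs after chronic exposure to saline water. Farm-raised turtles, 2 years old, were held for 30 days in fresh water (0 psu, the control), at 5 psu or at 15 psu, with 1 pool and 3 turtles per salinity. All groups received the same commercial diet and were fasted for 24 h before the liver was taken. The livers of the 3 turtles of a group were mixed into 1 poly(A) RNA library, so the data hold 1 library per salinity.

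With 1 library per salinity there is no replicate, no value carries an error, and no difference was tested here. The paper itself called differential genes with DEGseq, by a change of 2-fold or more and an adjusted p-value. Salinity, pool and the particular turtles cannot be told apart. Levels are FPKM (fragments scaled by unigene length and by the mapped fragments of the library), and differences are log2 ratios of FPKM + 0.1, which understate the change of low unigenes. A difference of 2-fold or more was counted among unigenes that reached FPKM of 1 in 1 or both libraries compared. The fragment count behind each value is unknown. A gene split into several unigenes can be counted more than once in a sum of FPKM, so a sum need not be the level of the gene. The paper lists the most clean reads for the 5 psu library. That library also had the most unigenes above 0, with 119996 beside 102765 at 0 psu and 102228 at 15 psu. The 3 comparisons share libraries, so their counts are not independent of each other.

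In vertebrate liver, the methionine cycle turns methionine into S-adenosylmethionine, the methyl donor of most methylation reactions, and then into homocysteine. Homocysteine is methylated back to methionine with a methyl group from folate or from betaine, or it leaves the cycle toward cysteine by transsulfuration. Betaine is also a well-known organic osmolyte. The folate cycle carries one-carbon units from serine, glycine, histidine and formate to methionine and nucleotide synthesis.

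Summed FPKM of the 3 libraries ranged from 960385 to 986004, and the 25794 unigenes that reached FPKM of 1 in each of them had a median log2 ratio to 0 psu of 0.08 at 5 psu and 0.02 at 15 psu. Of 10 hepatocyte markers 9 were found, each with FPKM above 98 in every library, which fits the liver label. No unigene was found for the 4 kidney markers. The cardiac muscle markers, 3 of 4 found, summed to FPKM of 25.2 at 0 psu, but to 0 at 5 psu and 0.99 at 15 psu.

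By name, the 35 members fell into 4 groups of enzymes and 1 pair of other proteins. MTHFSD and an FTCD-like unigene, which KEGG did not name, were counted in the folate group. AMD1, which takes S-adenosylmethionine to polyamine synthesis, and an AMD1-like unigene were counted in the methionine cycle. The folate cycle held 15 unigenes of 12 genes, the methionine cycle 11 of 8 genes, the path from betaine to glycine 4 of 3 genes, and transsulfuration 3 of 2 genes. The remaining 2 unigenes encode HERPUD1 and HERPUD2, membrane proteins of the endoplasmic reticulum that the rule took because "homocysteine-responsive" is part of their name. Of all 35, 31 reached FPKM of 1 in some library, 30 reached it in all of them, and 2 were listed at 0 in every library.

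Levels spanned a wide range. SHMT2, SHMT1 and BHMT were the only members to reach FPKM of 100. Together they held 65.9%, 57.0% and 60.1% of the summed FPKM of the 33 one-carbon enzyme unigenes in the libraries at 0, 5 and 15 psu. Among the unigenes matched to the 5 genera and above 0, SHMT2 ranked 298 of 23884 at 0 psu. The summed FPKM of the 33 one-carbon enzyme unigenes was 776, 660.1 and 638 at 0, 5 and 15 psu. The saline libraries thus had 85.0% and 82.2% of the freshwater sum. The main GNMT unigene, outside the rule, had FPKM of 1322, 963 and 1389. It alone exceeds this sum in every library and is not lower at 15 psu. The sum and the shares therefore hold for the members only. The groups moved apart within this sum. The betaine group and transsulfuration were lower at 15 psu, whereas the summed FPKM of the methionine cycle members was higher at both salinities. That sum holds neither AHCY nor the main GNMT unigene, which the rule did not take. BHMT, a member that also returns homocysteine to methionine, was counted in the betaine group and not in that sum.

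**Figure D1:**
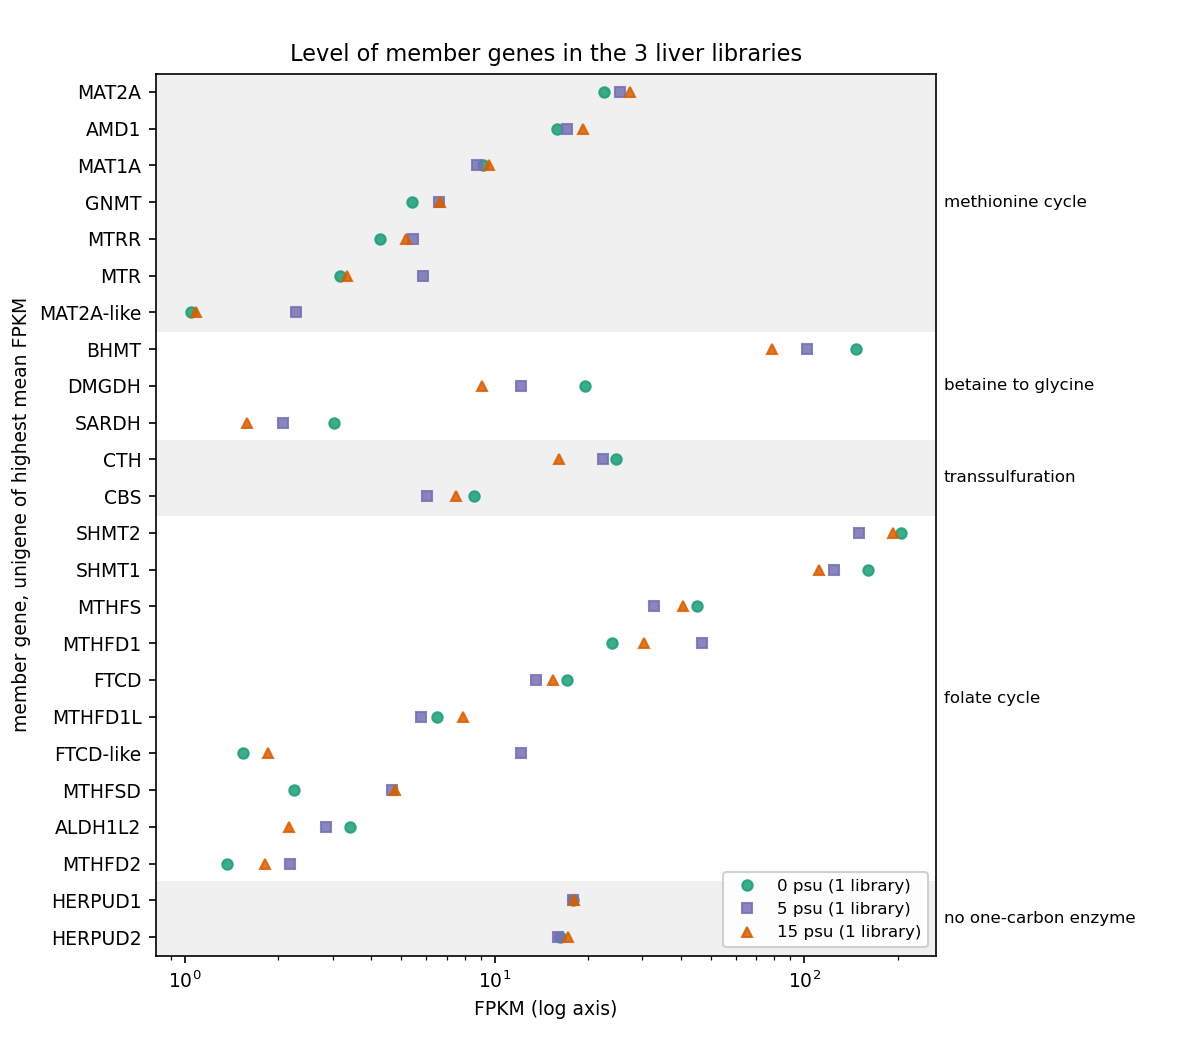
FPKM (log axis) of 24 member genes that reached FPKM of 1, each by its unigene of highest mean FPKM, in the libraries at 0 psu (circles), 5 psu (squares) and 15 psu (triangles), with 1 library per salinity and no error bars. SHMT2, SHMT1 and BHMT lie farthest to the right, and the points of BHMT, DMGDH and SARDH run in the same order, with 0 psu highest and 15 psu lowest.

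The 3 member enzymes of the path from betaine to glycine were all lower in saline water, in the order of salinity. BHMT, which moves a methyl group from betaine to homocysteine and leaves dimethylglycine, had 1 unigene (c104063_g1), with FPKM of 147, 102 and 78.8 at 0, 5 and 15 psu. The log2 ratio to 0 psu was -0.53 at 5 psu and -0.90 at 15 psu, so that BHMT stood at 69.2% and 53.6% of its freshwater level. By rank among the unigenes matched to the 5 genera and above 0, BHMT went from 392 of 23884 in fresh water to 558 of 24988 and then 746 of 23588.

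DMGDH (c107531_g1), the mitochondrial dehydrogenase that turns dimethylglycine into sarcosine, had FPKM of 19.5, 12.1 and 9.12 at 0, 5 and 15 psu. Its log2 ratio to 0 psu was -0.68 at 5 psu and -1.09 at 15 psu. Of the members counted, DMGDH was the only one past 2-fold lower in any comparison with 0 psu. With libraries scaled by their upper quartile its value at 15 psu was -0.997, just short of the criterion.

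SARDH, which oxidises sarcosine to glycine and hands the released one-carbon unit to folate, was represented by 2 unigenes. One (c120266_g1) had FPKM of 3.02, 2.07 and 1.59 at 0, 5 and 15 psu. The other (c120266_g2) had 1.88, 1.65 and 1.32. Their log2 ratios for 15 against 0 psu were -0.88 and -0.48.

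The summed FPKM of the 4 unigenes of this group was 171, 118 and 90.8 at 0, 5 and 15 psu, or 68.6% and 53.0% of the freshwater sum. The sum was lower at both salinities under every scaling tried, at 64.8% to 75.8% for 5 psu and 45.5% to 56.5% for 15 psu. It does not hold PIPOX, which also oxidises sarcosine but which the rule did not take. PIPOX had FPKM of 220, 219 and 201, or 99.5% and 91.6% of its freshwater level. The lower sum is thus that of the members, not of all enzymes of the path. BHMT was 7.54, 8.39 and 8.63 times DMGDH at 0, 5 and 15 psu, and DMGDH was 6.46, 5.86 and 5.74 times the highest SARDH unigene. The other SARDH unigene was at 87.8% and 70.2% of its freshwater level at 5 and 15 psu. DMGDH was at 62.2% and 46.7%, so its proportion to that unigene was not kept.

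Markers of hepatocytes, the cells in which these enzymes are best known, were also lower in saline water as a sum, though not each of them. Their summed FPKM over the 9 markers found was 62.7% of the 0 psu value at 5 psu and 69.3% at 15 psu, with 6 of 9 lower at 5 psu and 7 of 9 lower at 15 psu. Without albumin (ALB), which had FPKM of 4846, 824 and 1268, the sums were 77.7% and 83.4%. Without both ALB and transferrin (TF), which had 6625, 4504 and 5198, the 7 markers left were at 85.6% and 87.5%. At 5 psu 3 of the 9 markers were higher than at 0 psu, and at 15 psu 1 was. The hepatocyte sum was lower at 5 psu than at 15 psu, the reverse of the order of BHMT, DMGDH and SARDH. Lymphocyte markers, all 4 found, had summed FPKM of 99.0, 59.1 and 45.7 at 0, 5 and 15 psu, and this sum had the order of BHMT. CD3E led the sum, at 62.0, 25.6 and 24.0. CD3E, CD79A and CD79B each had that order, whereas PTPRC was highest at 5 psu, at 12.5, 15.1 and 11.45. Among the marker sets found, only the lymphocyte sum had the order of BHMT, and it is given here for that order. The part of the hepatocyte or the lymphocyte set in the result was not tested. In these whole-liver libraries, fewer cells of a type and less RNA per cell cannot be told apart.

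**Figure D2:**
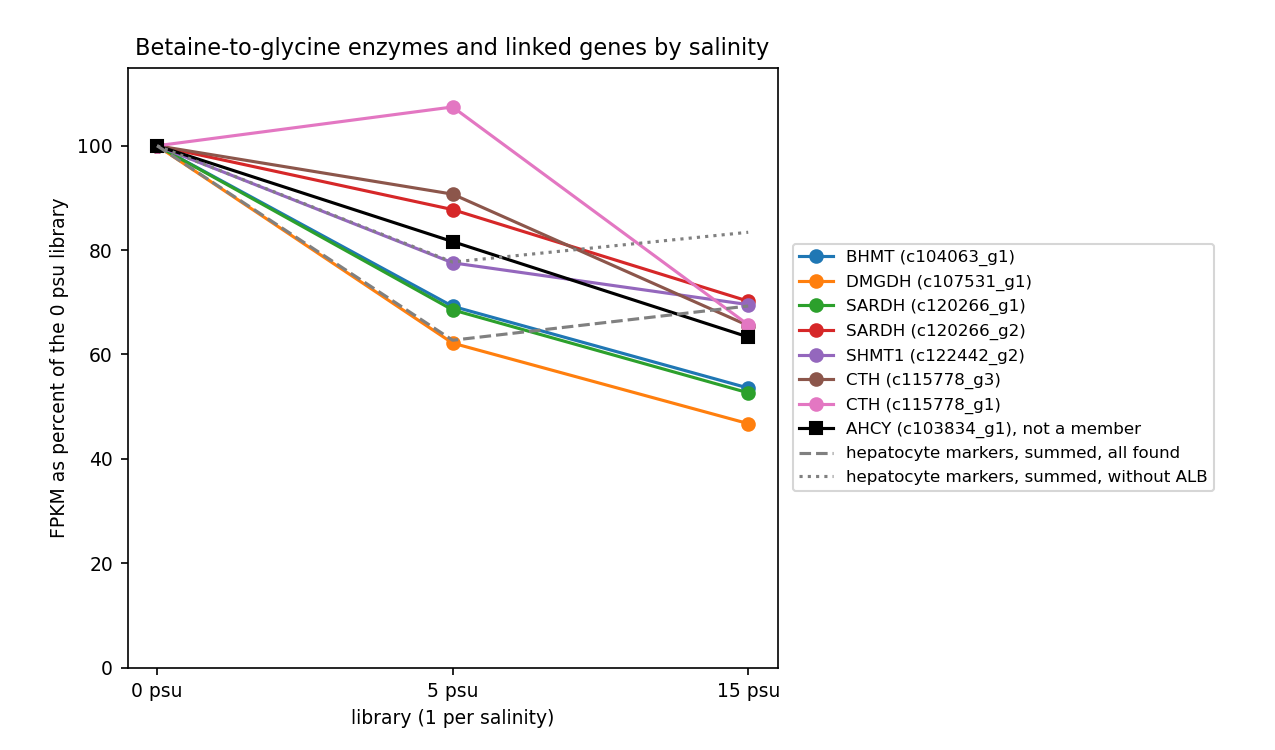
FPKM as a percent of the 0 psu library (y axis) in the 3 libraries (x axis) for BHMT, DMGDH, both SARDH unigenes, SHMT1, both CTH unigenes and AHCY, with the summed hepatocyte markers as grey lines without symbols, dashed with and dotted without albumin. BHMT, DMGDH and the higher SARDH unigene lie between 62.2% and 69.2% at 5 psu and between 46.7% and 53.6% at 15 psu. The other genes drawn end between 63.3% and 70.2% at 15 psu. The hepatocyte lines are at 62.7% and 77.7% at 5 psu and at 69.3% and 83.4% at 15 psu. The part of the hepatocyte set was not tested.

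Values of neighbouring enzymes are given without a comparison. CHDH, which starts the synthesis of betaine from choline, had FPKM of 6.58, 7.37 and 6.90 at 0, 5 and 15 psu. PIPOX, a peroxisomal enzyme that also oxidises sarcosine, had 220, 219 and 201, and ALDH7A1, which among other reactions oxidises betaine aldehyde, had 39.4, 35.9 and 40.9. PIPOX and ALDH7A1 were picked from the list of related genes after their values were seen.

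MTR, the cobalamin-dependent methionine synthase, was highest at 5 psu. Its main unigene (c122162_g9) had FPKM of 3.16, 5.89 and 3.34 at 0, 5 and 15 psu, with a log2 ratio of 0.88 at 5 psu and 0.08 at 15 psu. A second unigene (c122162_g5) had 1.01, 4.02 and 2.29, with log2 ratios of 1.89 and 1.11. The third was below FPKM of 0.4 in all libraries. Summed over the 3 unigenes, MTR was at 4.39, 10.1 and 6.01. The direction at 15 psu rested on the scaling for the main unigene, which was at -0.14 relative to beta-actin. By their main unigenes, BHMT was 46.5, 17.3 and 23.6 times MTR at 0, 5 and 15 psu.

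MTRR, the reductase that keeps methionine synthase active, had FPKM of 4.27, 5.46 and 5.17 in its main unigene. A second MTRR unigene had 2.09 at 5 psu and was listed at 0 in the other libraries. The log2 ratio of the main unigene to 0 psu was 0.35 at 5 psu and 0.27 at 15 psu, short of 2-fold.

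S-adenosylmethionine synthesis differed little. MAT1A, the form typical of adult mammalian liver, had FPKM of 9.19, 8.75 and 9.62, and MAT2A, the form found in most other mammalian tissues, had 22.5, 25.4 and 27.4. MAT2A was thus 2.45 times MAT1A at 0 psu, 2.90 times at 5 psu and 2.85 times at 15 psu. A further unigene similar to MAT2A had 1.05, 2.29 and 1.09 and was past 2-fold higher at 5 psu, with a log2 ratio of 1.06. It fell short of the criterion with a pseudocount of 1, at 0.68, and with libraries rescaled to a median ratio of 1, at 0.98.

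Of the enzymes that use S-adenosylmethionine, AMD1, which commits it to polyamine synthesis, had FPKM of 15.9, 17.1 and 19.2 and was higher in each more saline library. A second unigene, similar to AMD1 but with a plant protein as its best Swissprot match, had 0.86 and 0.33 and was listed at 0 at 15 psu. GNMT, which methylates glycine to sarcosine and is abundant in mammalian liver, had FPKM of 5.41, 6.63 and 6.68 in its member unigene (c124744_g1).

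A more abundant GNMT unigene (c113231_g1) lay outside the rule because its best NR match was to a starling (Sturnus vulgaris). It had FPKM of 1322, 963 and 1389 at 0, 5 and 15 psu, which was 244, 145 and 208 times the member unigene. KEGG named it GNMT and its best Swissprot match was the rat GNMT, whereas the member unigene carried neither annotation. The level of GNMT as a gene therefore lay mostly outside the member set. Another 11 unigenes carried a term of the rule with other species, and 9 of these were above 0 in 1 library only, at FPKM of 25.2 or less.

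Over the methionine cycle group as a whole, the summed FPKM of the member unigenes was 63.6, 78.1 and 75.2 at 0, 5 and 15 psu. The saline libraries thus had 123% and 118% of the freshwater sum. The sum holds the AMD1-like unigene and AMD1, at 15.9, 17.1 and 19.2, though AMD1 takes S-adenosylmethionine out of the cycle. Relative to beta-actin the sum at 15 psu was 101%. With AHCY, an enzyme of the cycle outside the rule, added to the members after the data were seen, the sum was 270.1, 247 and 206, so that the direction turned at both salinities. The main GNMT unigene, also outside the rule, was not added. At FPKM of 1322, 963 and 1389 it exceeds this sum in every library and is not lower at 15 psu. The direction of the cycle as a whole therefore rests on which genes are added. BHMT, which also makes methionine from homocysteine, was counted in the betaine group, with FPKM of 147, 102 and 78.8. It was lower by more than the member sum was higher at both salinities, so the direction also rests on that placement.

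In the folate cycle, the hydroxymethyltransferases that pass a carbon from serine to tetrahydrofolate were the most abundant members. SHMT2 (c120740_g1), the mitochondrial form, had FPKM of 204, 150.4 and 193 at 0, 5 and 15 psu, so that it was lowest at 5 psu. SHMT1 (c122442_g2), the cytosolic form, had 160.3, 124 and 111 and was lower in each more saline library, with log2 ratios to 0 psu of -0.37 and -0.52. The ratio of SHMT2 to SHMT1 was 1.27, 1.21 and 1.73. At 15 psu the log2 ratio of SHMT2 to 0 psu was -0.08, and it ranged from -0.30 relative to beta-actin to 0.01 after scaling by the upper quartile.

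MTHFD1 (c119805_g1), the cytosolic enzyme with 3 activities that interconverts folate-bound one-carbon units, had FPKM of 23.9, 46.6 and 30.3 at 0, 5 and 15 psu. At 5 psu its log2 ratio was 0.96, just short of 2-fold, and 1.11 with libraries scaled by the upper quartile. Its mitochondrial relative MTHFD1L, which releases formate, had 6.52, 5.79 and 7.88. MTHFD1 was 3.66 times MTHFD1L at 0 psu, 8.04 times at 5 psu and 3.84 times at 15 psu. MTHFD2, a mitochondrial dehydrogenase and cyclohydrolase, had 1.37, 2.19 and 1.82, and a second MTHFD2 unigene was listed at 0 throughout. The paper lists MTHFD2, by name and without a unigene, among its differential genes for 0 vs. 5 psu. The main MTHFD2 unigene here was short of 2-fold, with a log2 ratio of 0.64.

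MTHFS and FTCD were lowest at 5 psu. MTHFS, which returns 5-formyltetrahydrofolate to use, had FPKM of 45.1, 32.6 and 40.7, and FTCD, which takes a one-carbon unit from histidine breakdown, had 17.1, 13.6 and 15.4. In both, the 15 psu library lay between 5 psu and fresh water. A second FTCD unigene was listed at 0 in every library.

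ALDH1L2, the mitochondrial enzyme that oxidises the formyl group of folate to carbon dioxide, had FPKM of 3.41, 2.85 and 2.17, with log2 ratios to 0 psu of -0.25 and -0.63.

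The folate group also held the widest difference among the members above 0 in all libraries. A unigene similar to FTCD (c111614_g1), matched in Swissprot to the formiminotransferase N-terminal subdomain-containing protein and without a KEGG name, had FPKM of 1.54, 12.1 and 1.86 at 0, 5 and 15 psu. Its log2 ratio was 2.90 for 5 against 0 psu and -2.64 for 15 against 5 psu. FTCD itself did not share this pattern. The paper lists c111614_g1 among its differential genes for 0 vs. 5 psu.

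MTHFSD, a protein with an MTHFS-like domain, was past 2-fold higher at 15 psu in both of its unigenes. One (c120898_g2) had FPKM of 2.25, 4.66 and 4.75 at 0, 5 and 15 psu, with log2 ratios to 0 psu of 1.02 and 1.05. The other (c120898_g4) had 1.16, 1.69 and 3.42, with 0.51 and 1.48. These are low levels, and the first unigene fell short of 2-fold at both salinities with a pseudocount of 1, at 0.80 and 0.82, and relative to beta-actin, at 0.99 and 0.83. At 5 psu it also fell short with libraries rescaled to a median ratio of 1, at 0.94, as did the sum over both unigenes, at 0.88. Summed over both, MTHFSD was at 3.41, 6.35 and 8.17.

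The summed FPKM of the folate group was 493, 419.5 and 438 at 0, 5 and 15 psu, or 85.2% and 89.0% of the freshwater sum.

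Transsulfuration was lower at 15 psu in its second step. CBS, which joins homocysteine to serine, had FPKM of 8.58, 6.04 and 7.50. KEGG gave its unigene the names of both CBS and the splicing factor U2AF1. CTH, which splits cystathionine to release cysteine, had 24.6, 22.3 and 16.1 in 1 unigene (c115778_g3) and 15.3, 16.5 and 10.1 in the other (c115778_g1). The log2 ratios of these CTH unigenes were -0.61 and -0.60 for 15 against 0 psu but -0.14 and 0.10 for 5 against 0 psu.

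The summed level of transsulfuration was 69.5% of the freshwater value at 15 psu, and 59.6% to 74.1% under the other scalings. At 5 psu it was 92.4%, and 102% after scaling by the upper quartile, so no direction can be given there. Cholangiocyte markers, 2 of 5 found, summed to FPKM of 47.4, 62.5 and 13.6 at 0, 5 and 15 psu, and erythrocyte markers, 3 of 4 found, to 1253, 1558 and 885. Both sets were lowest at 15 psu, as were the CTH unigenes, and are given here for that. EPCAM held most of the cholangiocyte sum, at 43.1, 58.7 and 10.3, and SOX9 had 4.24, 3.81 and 3.25. The lymphocyte sum was also lowest at 15 psu, at 99.0, 59.1 and 45.7. The part of these sets in the result was not tested. Some sets were not lowest at 15 psu. Kupffer cell or macrophage markers summed to 1006, 931 and 1097, endothelial markers to 58.5, 63.0 and 71.7, and stellate cell or fibroblast markers to 151, 105 and 123. The 1 pancreas marker found was also lowest at 15 psu, at 1.67, 1.71 and 1.47. The main CTH unigene was 2.86 times CBS at 0 psu, 3.69 times at 5 psu and 2.15 times at 15 psu.

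HERPUD1 and HERPUD2, the members that are not one-carbon enzymes, stayed level. HERPUD1 had FPKM of 17.9, 17.9 and 18.1 and HERPUD2 had 16.2, 15.98 and 17.2. Both serve in the disposal of misfolded proteins of the endoplasmic reticulum.

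**Figure D3:**
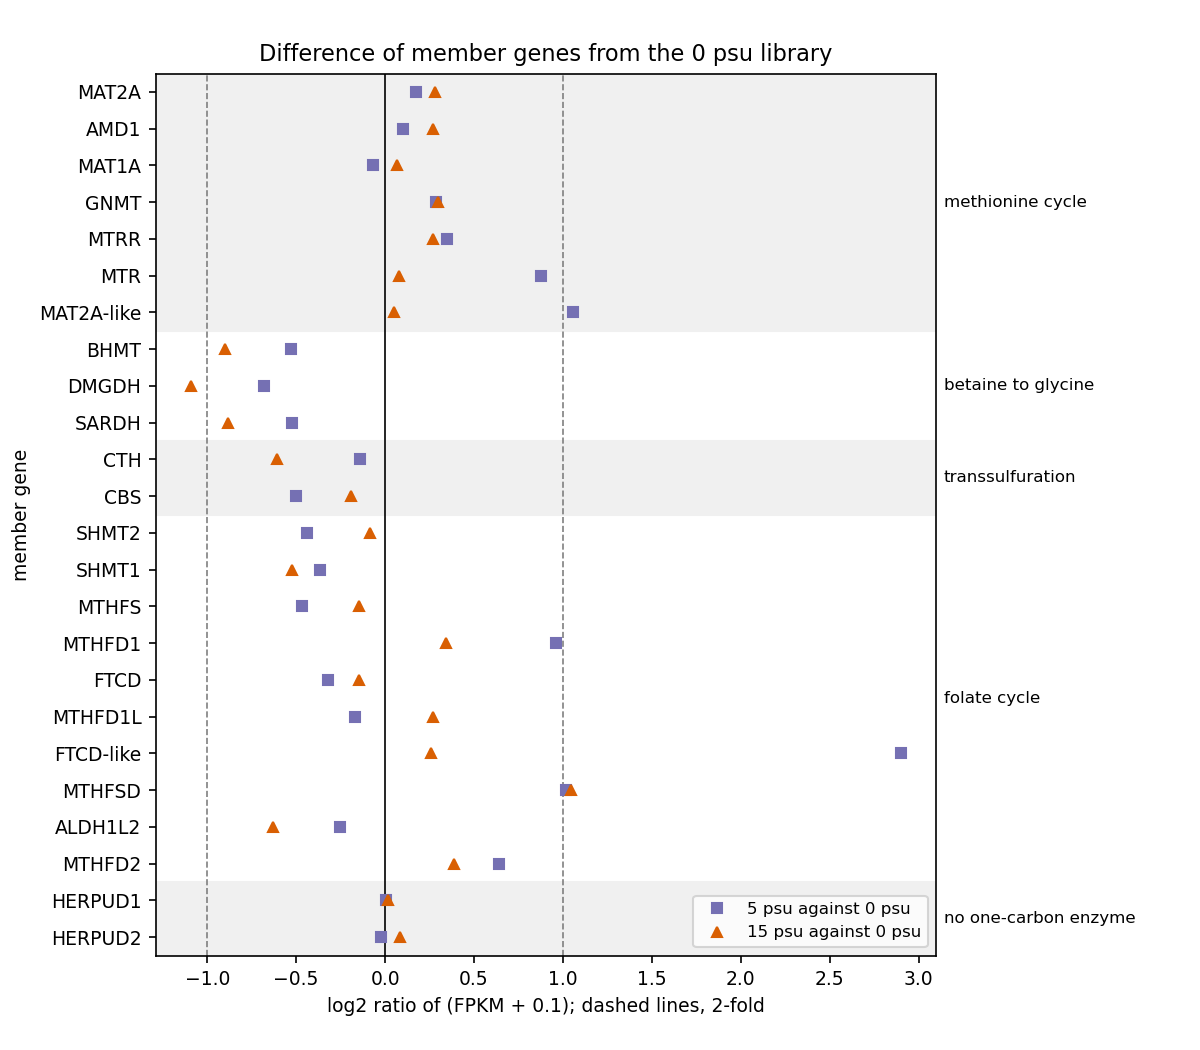
Log2 ratio of FPKM + 0.1 (x axis) at 5 psu (squares) and 15 psu (triangles) against 0 psu for 24 member genes that reached FPKM of 1, each by its unigene of highest mean FPKM, with dashed lines at 2-fold. The FTCD-like unigene at 5 psu (2.90) lies far from all others, and BHMT, DMGDH and SARDH lie to the left of 0 at both salinities.

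Counted over unigenes, 5 of 31 members were 2-fold or more higher at 5 psu than at 0 psu and 0 were lower. The share over all unigenes was 65.5%, and over unigenes matched to the 5 genera it was 29.9%, of which 16% were higher and 13.9% lower. The members higher at 5 psu were the FTCD-like unigene, the second MTR unigene, the second MTRR unigene, the MAT2A-like unigene and 1 MTHFSD unigene. All but the FTCD-like unigene had FPKM below 5 in every library. The share of members higher was near the background of matched unigenes.

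At 15 psu, 3 of 30 members were 2-fold or more higher than at 0 psu and 1 was lower, against 29.6% changed among the matched unigenes (13.6% higher, 16% lower) and 64.0% among all. These were both MTHFSD unigenes, the second MTR unigene and, lower, DMGDH. Relative to beta-actin the count was again 4, but 1 was higher and 3 were lower. From 5 to 15 psu, 0 of 31 members were higher and 3 were lower, against 30.5% of matched unigenes (13% higher, 17.5% lower) and 65.5% of all. Those lower were the FTCD-like, the second MTRR and the MAT2A-like unigenes.

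The median log2 ratio of the members was 0.00, 0.06 and -0.08 for 0 vs. 5, 0 vs. 15 and 5 vs. 15 psu, beside 0.08, 0.01 and -0.06 for the matched unigenes and 0.22, -0.04 and -0.26 for all unigenes. At a criterion of 1.5-fold, 6 of 30 members were lower at 15 than at 0 psu, beside 21.2% of matched and 37.6% of all unigenes. With a filter of FPKM of 10, 4 of 15 members were lower, beside 14.1% of matched and 36.8% of all unigenes. These were BHMT, DMGDH and both unigenes of CTH, so that by gene 3 of 14 were lower.

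Of the 30 members that reached FPKM of 1 throughout, 7 (23.3%) were lower in each more saline library. The same order was found for 13.8% of matched unigenes and 14.3% of all. By gene it was 6 of 26. With FPKM of at least 10 throughout it was 3 of 14 members, beside 13.2% of matched and 13.5% of all unigenes. The 7 were BHMT, DMGDH, both SARDH unigenes, SHMT1, ALDH1L2 and 1 CTH unigene. Another 6 were higher at each step (19.5% of matched unigenes, 18.4% of all). At 5 psu 9 were highest (39.5% and 40.1%) and 8 were lowest (26.6% and 26.5%).

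The other genes of these pathways were taken from a list of 56 symbols. MTRR was already a member, 48 of the other 55 were found, and 7 were not found by name. At 5 psu 2 of 47 were 2-fold or more higher than at 0 psu and 0 were lower. At 15 psu 1 of 46 was higher and 0 were lower, and from 5 to 15 psu 0 of 47 were higher and 1 was lower. The shares of matched unigenes past 2-fold in these comparisons were 29.9%, 29.6% and 30.5%, and of all unigenes 65.5%, 64.0% and 65.5%. Apart from NNMT, the 34 listed genes that reached FPKM of 10 throughout stayed within 0.79 on the log2 scale in every comparison.

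AHCY (c103834_g1), which splits S-adenosylhomocysteine into homocysteine and adenosine, had FPKM of 207, 169 and 131 at 0, 5 and 15 psu. Its log2 ratio to 0 psu was -0.29 and -0.66, and its rank among matched unigenes was 294, 330 and 442. Like BHMT, AHCY was lower in each more saline library. The rule did not take AHCY because its name is adenosylhomocysteinase.

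NNMT, which methylates nicotinamide with S-adenosylmethionine, was past 2-fold higher in its main unigene (c121220_g1), with FPKM of 13.2, 29.4 and 28.8 and log2 ratios to 0 psu of 1.15 and 1.12. The gene had 6 unigenes, and summed over them NNMT was at 42.6, 62.5 and 59.6, with log2 ratios of 0.55 and 0.48. Neither sum passed 2-fold, and relative to beta-actin the main unigene was at 0.90 for 15 against 0 psu, short of 2-fold. GAMT, the last enzyme of creatine synthesis and another consumer of methyl groups, had 30.5, 33.8 and 33.8.

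The remaining gene past the criterion was ADK, which phosphorylates adenosine. Its highest unigene was seen in the 5 psu library alone, with FPKM of 13.1, was listed at 0 in the others and had no KEGG name. ADK had 3 unigenes, and its count past 2-fold was made on this unigene alone. With unigenes summed per gene, a listed gene other than NNMT was past 2-fold in each comparison. Whether that gene was ADK is not given here.

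GLDC, the decarboxylase of the glycine cleavage system, had FPKM of 203, 227 and 218. Downstream of cysteine, CDO1, which oxidises cysteine, had 107, 82.4 and 84.7. CSAD, the next enzyme toward taurine, had 14.0, 11.8 and 8.70, with a log2 ratio of -0.68 at 15 psu. Chosen after their values were seen, GCLC, the catalytic subunit of the first enzyme of glutathione synthesis, had 11.4, 10.8 and 6.52, and GGH, which trims folate polyglutamates, had 39.8, 32.4 and 27.4. Also chosen for their values, ADI1, a dioxygenase of methionine salvage, had 78.8, 114 and 126, and PSPH, the last enzyme of serine synthesis, had 39.5, 53.6 and 68.3.

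**Figure D4:**
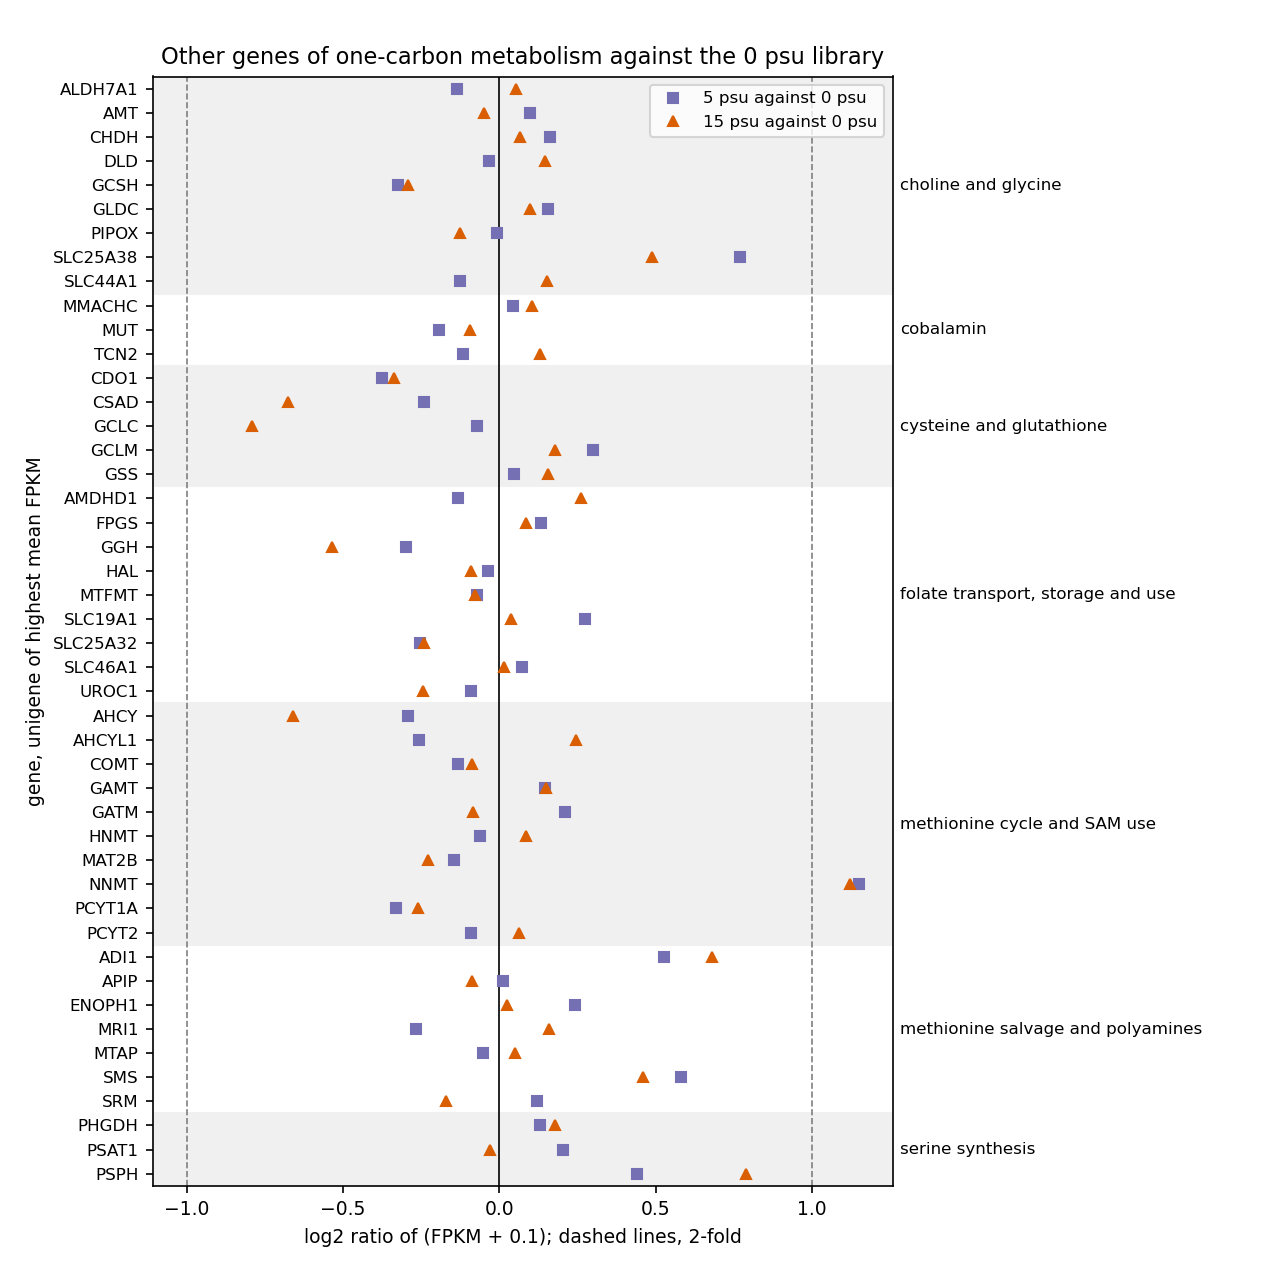
Log2 ratio of FPKM + 0.1 (x axis) at 5 psu (squares) and 15 psu (triangles) against 0 psu for the listed pathway genes that reached FPKM of 1 and were above 0 in all libraries, each by its unigene of highest mean FPKM and grouped by role. The main NNMT unigene lies past the dashed 2-fold line at both salinities (1.15 and 1.12), and AHCY, CSAD and GCLC lie lowest at 15 psu, at -0.66 or below.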

How the data were processed

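Liver RNA of red-eared sliders was sequenced as 1 library per salinity (0, 5 and 15 psu) from the mixed livers of 3 turtles each. The labels write the salinities as percentages, and the psu values of the growth protocol were used. The authors used SeqPrep and Sickle for trimming, Trinity for assembly without a reference genome, RSEM for quantification (the processing notes also name Bowtie) and BLASTX for annotation. Their deposited values are FPKM with 2 decimals, with no mention of a scaling step between libraries. FPKM divides by unigene length and library total, so an abundant gene lowers all others. Because of the division by length, FPKM summed over the unigenes of a split gene can count that gene more than once. A further 20 lines of the table were not used here.

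Levels, log2 ratios with a pseudocount of 0.1 and counts past 2-fold were computed with Python 3.11.15, numpy 2.4.6, pandas 2.3.3 and matplotlib 3.10.9. The counting code was run on freshwater values with large changes put in without noise, which checks the code but not calls near 2-fold. No fold is given for a unigene listed at 0 in a library, although such unigenes enter counts and medians through the pseudocount. Genes were named from the NR text, with KEGG and Swissprot names as a check. Every member gene that reached FPKM of 1 in some library is named, except 2 that are not reported here by name and enter only counts, sums and medians. Of the pathway list, genes past 2-fold whose higher library reached FPKM of 10 are named, as are AHCY, CHDH, GAMT, NNMT, GLDC, CDO1 and CSAD, and others are marked as chosen by value. Members and lists were chosen with earlier results of these data known. The alternatives were other pseudocounts, filters and fold criteria, rescaling by the median ratio, the upper quartile or beta-actin, and 1 unigene or a sum per gene.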

Additional observations from a re-analysis of the deposited data

How the results depend on the processing

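No paired analysis was possible because each salinity has 1 library. For the same reason no library could be left out, and the fragment count behind each FPKM value is unknown. The number of members past 2-fold between 0 and 5 psu was 5. It was 3 with a pseudocount of 1, with rescaling to a median ratio of 1, with 1 unigene per gene and with unigenes summed per gene, 1 with FPKM of at least 5, and 9 at 1.5-fold. It was 7 after scaling by the upper quartile, 6 without a filter (5 higher, 1 lower) and 4 relative to beta-actin. After scaling by the upper quartile the main MTR unigene (1.02) and MTHFD1 (1.11) also passed 2-fold. Between 0 and 15 psu it was 4, with 2 under a pseudocount of 1, 1 unigene per gene or summed unigenes, 1 with FPKM of at least 5, and 9 at 1.5-fold. Between 5 and 15 psu it was 3, with 1 at FPKM of at least 5 and 8 at 1.5-fold. At 1.5-fold, 39.3%, 40.4% and 41.2% of matched unigenes changed in these comparisons, and 72.7%, 73.1% and 73.0% of all unigenes. At 2-fold the shares were 29.9%, 29.6% and 30.5% of matched and 65.5%, 64.0% and 65.5% of all unigenes. No such share was computed for the other pseudocounts, the rescalings, the filter of FPKM of 5 or the count without a filter. For the pathway list, the count between 0 and 5 psu went from 2 to 1 with summed unigenes, between 0 and 15 psu from 1 to 6 at 1.5-fold, and between 5 and 15 psu from 1 to 2 without a filter or at 1.5-fold. Scaling by the upper quartile shifted all log2 ratios to 0 psu by 0.14 at 5 psu and 0.09 at 15 psu, and scaling to beta-actin by -0.03 and -0.22. Relative to beta-actin, BHMT and SARDH passed 2-fold lower at 15 psu, at -1.12 and -1.09, so that 3 higher and 1 lower became 1 higher and 3 lower. In the pathway list, 1 higher and 0 lower became 0 higher and 1 lower. Of 468 alternative log2 ratios for the member genes, 443 kept the sign of the reported value, and the 25 that did not belonged to reported values of 0.17 or less in size. Many of the 443 were fixed in advance. Another pseudocount cannot turn a sign, and summing does not alter a gene with 1 unigene. The number that kept its sign is thus no measure of stability. The median of the members changed sign in each comparison under some alternative and ranged from -0.08 to 0.15 between 0 and 5 psu.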
